A study of Mus musculus with 6 samples.

Results

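Of the genes described here, 8 encode proteins of the Z-disc and the M-band, the 2 kinds of cross-link that hold the filaments of the sarcomere in register, and of the intermediate filament that ties neighbouring Z-discs together. All 10 were chosen by symbol, 8 for the structure in which their products lie and 2 for facing *Des* and *Myom1* on the opposite strand. The 10 genes are the Z-disc genes *Actn2*, *Actn3*, *Tcap*, *Ldb3* and *Flnc*, the intermediate filament gene *Des*, the M-band genes *Myom1* and *Myom2*, and the genes *Gm15179* and *Myl12a*, whose exons overlap those of *Des* and *Myom1* on the opposite strand. They are 10 of the 52636 genes counted, and all 10 were among the 6831 genes that passed the filter on low counts and were tested.

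The study asked how loss of the clock gene *Bmal1* in adult skeletal muscle bears on the sarcomere, and RNA from the tibialis anterior (TA) muscle of 6 male C57BL/6 mice, 3 per group, was sequenced after depletion of ribosomal RNA. All 6 mice carried floxed *Bmal1* and the HSA-MCM transgene, a Cre recombinase that the human skeletal actin promoter directs to skeletal muscle fibres and that acts only once tamoxifen is given. iMS*Bmal1*-/- mice received tamoxifen on 5 days, at 2 mg each day, and iMS*Bmal1*+/+ mice were injected over the same days with the vehicle, 15% ethanol in sunflower seed oil. Injections were intraperitoneal and began at 12 to 16 weeks of age, and muscles were taken 5 weeks after they ended. Genotype and tamoxifen therefore cannot be told apart, and cells of the muscle other than fibres keep *Bmal1* in both groups.

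Genes took 2091912, 1997203 and 2716079 counts in the iMS*Bmal1*+/+ libraries, against 2403438, 1616290 and 2068657 in those of iMS*Bmal1*-/- mice. These totals hold only what was assigned to genes, and the read depth that the study states for each sample is far higher. Together the 10 genes took from 0.0816 to 0.124% of a library, and single genes had from 9 to 989 counts. Where a gene had 0 counts, as many as 3 are possible by counting error alone, which is 1.10 to 1.86 CPM in these libraries. *Bmal1* itself (*Arntl*) had counts of 5, 4 and 11 in the iMS*Bmal1*+/+ libraries, against 13, 5 and 5 in those of iMS*Bmal1*-/- mice, too few to check the genotypes. The libraries were made with a kit that marks the strand of the RNA, but the strand setting used in counting is not given in the sources used here. On the mitochondrial chromosome the 1 protein-coding gene of the minus strand had counts of 74293, 72449 and 72911 in the iMS*Bmal1*+/+ libraries, against 93484, 42996 and 60703 in those of iMS*Bmal1*-/- mice. The 12 protein-coding genes of the plus strand had fewer together in every library, with 47216, 38578 and 38555 counts against 34464, 27321 and 29426. Each value below is the deposited count under the gene's name, and reads of the opposite strand may make up part or all of it. For a gene such as *Actn2* or *Tcap* the strand of the reads behind the count was not tested.

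The Z-disc anchors the thin filaments of adjacent sarcomeres, which are cross-linked there by α-actinin, and it also holds the end of titin, which is capped by telethonin. Desmin filaments surround the Z-disc and link it to neighbouring myofibrils and to the membrane. In the middle of the sarcomere the M-band links the thick filaments through myomesins, which also bind titin. Mutations of several of these genes cause myopathies, and in fast muscles such as the TA, α-actinin-3 is the actinin typical of the fastest fibres.

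Counts were normalized by TMM, and the levels of the 10 genes were compared as CPM per kilobase of annotated exon. In iMS*Bmal1*+/+ muscle *Tcap* stood at 97.2 ± 21.5 CPM per kilobase (SD, n = 3) and *Actn3* at 96.5 ± 23.5 (SD, n = 3), which did not differ beyond their spread. *Des* followed at 68.8 ± 4.95 CPM per kilobase (SD, n = 3), with the smallest SD of the 3 relative to its mean. *Flnc* was at 12.8 ± 1.32 CPM per kilobase (SD, n = 3), below the lowest of these by more than the spread of either. *Actn2* (7.77 ± 3.19), *Ldb3* (7.26 ± 1.27) and *Myom2* (5.47 ± 0.875) (SD, n = 3 each) stood lower still, and *Myom1* was lowest of the 8 structural genes at 3.88 ± 0.102 CPM per kilobase (SD, n = 3). Of the opposite-strand genes, *Gm15179* was at 12.0 ± 2.86 and *Myl12a* at 2.05 ± 1.03 CPM per kilobase (SD, n = 3). In iMS*Bmal1*-/- muscle *Actn3* led with 137 ± 21.9 CPM per kilobase (SD, n = 3), and *Des* (70.4 ± 10.6) and *Tcap* (68.9 ± 13.6) lay close together below it. This is an order of deposited counts per length and may not be that of the transcripts, since the counts may hold reads of the opposite strand. For *Actn2*, *Actn3*, *Tcap*, *Ldb3*, *Flnc* and *Myom2* no annotated facing gene gives a count from the other strand to set beside the gene's own.

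By edgeR's quasi-likelihood test (two-sided), 0 of the 10 genes had an adjusted p under 0.05, where 1.83% of all tested genes did (0.761% of the tested genes higher and 1.07% lower) in iMS*Bmal1*-/- muscle. Of the 10, 4 had an unadjusted p under 0.05 (*Actn3*, *Tcap*, *Ldb3* and *Actn2*), as did 11.9% of the tested genes. DESeq2 called 0 of the 8 members for which it gave an adjusted p, and limma 0 of 10. The groups did not overlap for 3 of the 10 genes, higher in iMS*Bmal1*-/- muscle for *Actn2* and *Actn3* and lower for *Tcap*, beside 17.3% of all tested genes without overlap in either direction. The median log2 fold change of the 10 genes was 0.14, and that of all tested genes was -0.00087.

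**Figure D1:**
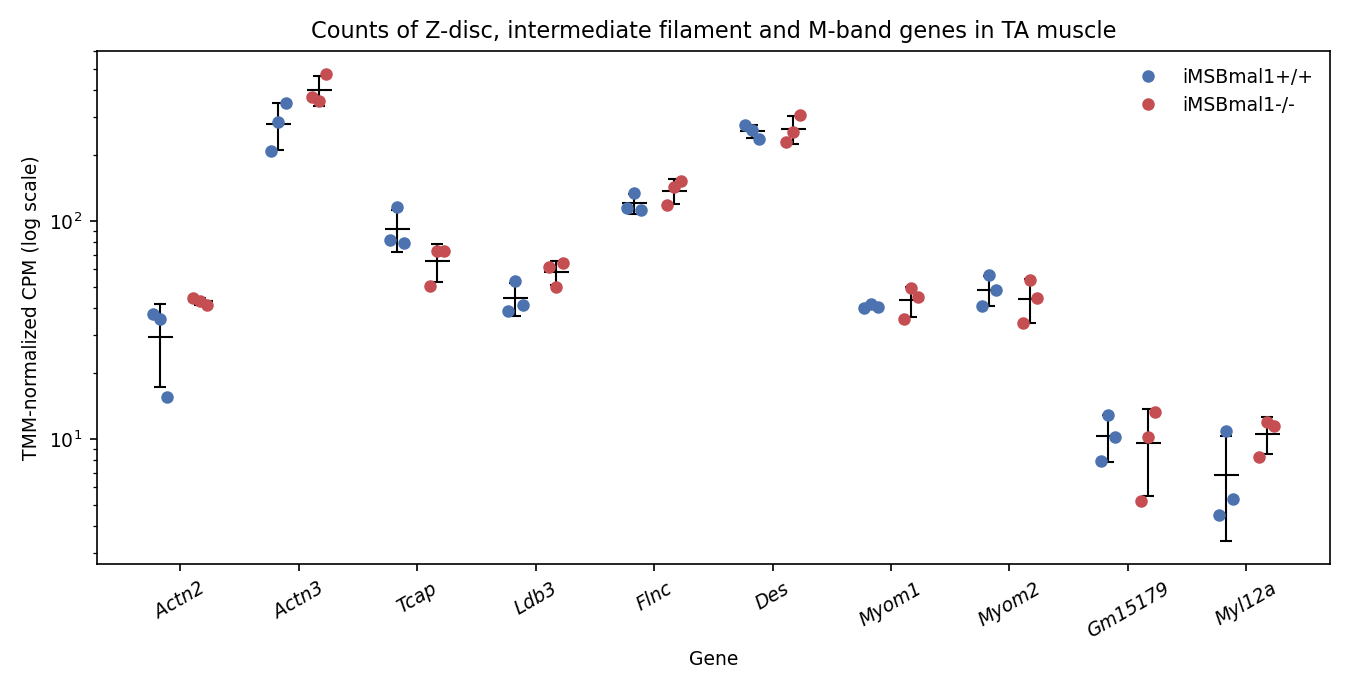
TMM-normalized CPM (vertical axis, log scale) of each of the 10 genes (horizontal axis) in the 3 iMS*Bmal1*+/+ (blue) and 3 iMS*Bmal1*-/- (red) libraries, with black bars for the mean ± SD. The red points lie above all blue points for *Actn2* and *Actn3* and below them for *Tcap*, while the groups overlap for the other 7 genes.

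*Actn3* encodes α-actinin-3, the actin cross-linker of fast fibre Z-discs. It lies on the minus strand of chromosome 19 (GRCm38, 4861216 to 4877909). It had counts of 422, 550 and 911 in the iMS*Bmal1*+/+ libraries, against 849, 593 and 989 in those of iMS*Bmal1*-/- mice. Normalized, these were 210, 284 and 346 CPM against 369, 355 and 472, so that all 3 iMS*Bmal1*-/- libraries lay above all iMS*Bmal1*+/+ libraries, by little between the nearest of them. The means were 280 ± 68.1 and 399 ± 63.5 CPM (SD, n = 3 each), a log2 fold change of 0.51 (standard error 0.15, 95% interval 0.19 to 0.82, adjusted p = 0.104 in edgeR). It was thus not past the threshold, and it passed under 3 of 13 alternatives, among them without iMS*Bmal1*+/+ replicate 3 (log2 fold change 0.69, edgeR adjusted p = 0.0193) and without the filter on low counts (0.0150). Across the 13 the adjusted p ranged from 0.00282 to 0.392, and the log2 fold change from 0.33 to 0.69. The lowest adjusted p came from the replicate block, a fit with the replicate number as a block, although these numbers do not pair the mice.

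*Actn2* encodes α-actinin-2, found in the Z-discs of all muscle fibres, and lies on the minus strand of chromosome 13 (12269426 to 12340760). It had counts of 75, 69 and 41 in the iMS*Bmal1*+/+ libraries, against 102, 72 and 86 in those of iMS*Bmal1*-/- mice. After normalization iMS*Bmal1*+/+ replicate 3, at 15.6 CPM, stood well below the other libraries of its group (37.3 and 35.6), and the iMS*Bmal1*-/- libraries lay close together at 44.4, 43.1 and 41.0 CPM. The log2 fold change was 0.57 (standard error 0.25, 95% interval 0.05 to 1.08, adjusted p = 0.356 in edgeR). Without iMS*Bmal1*+/+ replicate 3 it was 0.23 (edgeR adjusted p = 0.747), and with other libraries left out it reached 0.77, the adjusted p over all its alternatives being 0.149 (replicate block) to 0.747. The log2 ratio of *Actn2* to *Actn3* counts within a library differed by 0.11 between the genotypes (exact permutation test, two-sided, p = 1), with ratios of 0.178, 0.125 and 0.0450 in the iMS*Bmal1*+/+ libraries, against 0.120, 0.121 and 0.0870 in those of iMS*Bmal1*-/- mice. With iMS*Bmal1*+/+ replicate 3 left out this difference was -0.46, and with replicate 1 of the same group left out it was 0.53. Its direction turned only without iMS*Bmal1*+/+ replicate 3. The same library, iMS*Bmal1*+/+ replicate 3, held the fewest *Actn2* and the most *Actn3* counts of its group. The longest run of bases that transcripts of the 2 genes share is 51.

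*Tcap* encodes telethonin, which joins the ends of titin molecules at the Z-disc, and lies on the plus strand of chromosome 11 (98383811 to 98384953). The gene had counts of 164, 224 and 209 in the iMS*Bmal1*+/+ libraries, against 116, 121 and 153 in those of iMS*Bmal1*-/- mice, or 81.5, 116 and 79.3 CPM against 50.5, 72.5 and 73.0. Every iMS*Bmal1*-/- library was below every iMS*Bmal1*+/+ library, the direction opposite to that of the other Z-disc members. The log2 fold change was -0.50 (standard error 0.18, 95% interval -0.87 to -0.13, adjusted p = 0.210 in edgeR), and 0 of 13 alternatives took it past the threshold, with adjusted p from 0.0700 (replicate block) to 0.543. It lay between -0.60 and -0.31 with 1 library left out, -0.31 being the value without iMS*Bmal1*+/+ replicate 2, the library with the most *Tcap*.

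*Ldb3* encodes ZASP, a Z-disc protein that binds α-actinin, and *Flnc* encodes filamin C, an actin cross-linker at Z-discs and costameres. *Ldb3*, on chromosome 14 (minus strand, 34526603 to 34588682), had counts of 78, 103 and 108 in the iMS*Bmal1*+/+ libraries, against 141, 83 and 134 in those of iMS*Bmal1*-/- mice. The groups overlapped, since iMS*Bmal1*+/+ replicate 2 (53.2 CPM) was above iMS*Bmal1*-/- replicate 2 (49.7 CPM). Its log2 fold change was 0.41 (standard error 0.17, 95% interval 0.05 to 0.76, adjusted p = 0.333 in edgeR). *Flnc*, on chromosome 6 (plus strand, 29433256 to 29461883), had counts of 230, 261 and 296 in the iMS*Bmal1*+/+ libraries, against 272, 238 and 319 in those of iMS*Bmal1*-/- mice, with overlapping groups. Its log2 fold change was 0.19, with a 95% interval of -0.08 to 0.47 (adjusted p = 0.629 in edgeR). Without iMS*Bmal1*-/- replicate 3 the value for *Flnc* was 0.11, and the upper end of the interval is a fold of 1.38.

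*Des* encodes desmin, the intermediate filament protein of muscle, and occupies 75360329 to 75368579 on the plus strand of chromosome 1. Its counts were 552, 508 and 627 in the iMS*Bmal1*+/+ libraries, against 528, 426 and 645 in those of iMS*Bmal1*-/- mice, and the groups overlapped on the normalized scale, with 274, 262 and 238 CPM against 230, 255 and 308. The highest and the lowest library were both iMS*Bmal1*-/-. Over the 6 libraries its coefficient of variation was 10.7%, the lowest of the 10 genes and below the median of all tested genes (22.5%). The log2 fold change was 0.03 (95% interval -0.22 to 0.28, adjusted p = 0.958 in edgeR), and its sign changed under 4 of 14 alternatives. The interval corresponds to a fold of 0.860 to 1.22.

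*Gm15179* is an antisense gene on the minus strand (75368212 to 75375012) that faces the end of *Des*. The shared stretch runs from 75368212 to 75368431, is 220 bp long and lies in the 3′ untranslated region of Des-201 and in the last exon of Gm15179-202. *Gm15179* had counts of 16, 25 and 27 in the iMS*Bmal1*+/+ libraries, against 12, 17 and 28 in those of iMS*Bmal1*-/- mice, with overlapping groups and a log2 fold change of -0.12 (95% interval -0.88 to 0.63, adjusted p = 0.945 in edgeR). With 1 library left out this value ran from -0.47 to 0.19. *Des* had more counts than *Gm15179* in each library, with ratios of 34.5, 20.3 and 23.2 in the iMS*Bmal1*+/+ libraries, against 44.0, 25.1 and 23.0 in those of iMS*Bmal1*-/- mice. The log2 ratio differed by 0.21 between the genotypes (exact permutation test, two-sided, p = 0.6), and with 1 library left out by -0.08 to 0.44, the direction turning without iMS*Bmal1*-/- replicate 1.

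*Myom1* and *Myom2* encode myomesin-1 and myomesin-2, which bridge neighbouring thick filaments. *Myom1*, on the plus strand of chromosome 17 (71002633 to 71126856), had counts of 80, 81 and 106 in the iMS*Bmal1*+/+ libraries, against 82, 82 and 94 in those of iMS*Bmal1*-/- mice. Its iMS*Bmal1*+/+ libraries were close together (40.6 ± 1.07 CPM, SD, n = 3) and lay inside the range of the iMS*Bmal1*-/- libraries (43.2 ± 6.86 CPM, SD, n = 3). The log2 fold change was 0.08 (95% interval -0.28 to 0.44, adjusted p = 0.917 in edgeR), and its sign changed without iMS*Bmal1*-/- replicate 2 (-0.01).

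*Myom2*, on the plus strand of chromosome 8 (15057653 to 15133541), had counts of 82, 109 and 127 in the iMS*Bmal1*+/+ libraries, against 78, 90 and 93 in those of iMS*Bmal1*-/- mice, and the groups overlapped. Its log2 fold change was -0.15 (95% interval -0.54 to 0.25, adjusted p = 0.843 in edgeR), and it was 0.01 without iMS*Bmal1*-/- replicate 1. The ratio of *Myom1* to *Myom2* counts was 0.976, 0.743 and 0.835 in the iMS*Bmal1*+/+ libraries, against 1.05, 0.911 and 1.01 in those of iMS*Bmal1*-/- mice, a log2 difference of 0.23 (exact permutation test, two-sided, p = 0.2) that ran from 0.13 to 0.33 with 1 library left out. Transcripts of the 2 myomesins share no run longer than 17 bases. Within the body of *Myom2*, but on the minus strand and outside its exons, lies the processed pseudogene *Gm15678* (15100329 to 15101350), which was picked out after its values were seen. It had counts of 111, 85 and 179 in the iMS*Bmal1*+/+ libraries, against 97, 45 and 68 in those of iMS*Bmal1*-/- mice, and on the normalized scale every iMS*Bmal1*-/- library was lower. The edgeR log2 fold change was -0.71 (adjusted p = 0.0845, standard error 0.20), with adjusted p from 0.0135 to 0.334 over its 13 alternatives, 3 of them past the threshold, among them the fit without iMS*Bmal1*+/+ replicate 2 (0.0462).

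*Myl12a* encodes a regulatory light chain of non-muscle and smooth muscle myosin, and lies on the minus strand of chromosome 17 (70993656 to 71002878). Its exons overlap those of *Myom1* over 207 bp, from 71002672 to 71002878. On the side of *Myom1* this stretch belongs to 1 of 9 annotated transcripts, Myom1-209, and on the side of *Myl12a* to Myl12a-202, and it is untranslated in both. *Myl12a* had counts of 9, 21 and 14 in the iMS*Bmal1*+/+ libraries, against 19, 20 and 24 in those of iMS*Bmal1*-/- mice, and the groups overlapped through iMS*Bmal1*+/+ replicate 2. The log2 fold change of 0.63 had a 95% interval of -0.16 to 1.41 (adjusted p = 0.553 in edgeR), and with 1 library left out it was 0.41 to 1.07. *Myl12a* also shares a run of 529 bases with transcripts of its neighbour *Myl12b*, so that its counts are uncertain. *Myom1* had more counts than *Myl12a* in each library, with ratios of 8.89, 3.86 and 7.57 in the iMS*Bmal1*+/+ libraries, against 4.32, 4.10 and 3.92 in those of iMS*Bmal1*-/- mice. The ratio was higher in 2 iMS*Bmal1*+/+ libraries than in any other, but the log2 difference of -0.64 was not beyond the spread (exact permutation test, two-sided, p = 0.4) and was -0.998 to -0.40 with 1 library left out. With 3 libraries against 3 the exact test cannot give a p below 0.1, and after adjustment over the 4 ratios tested by it the values were 0.8 to 1.

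**Figure D2:**
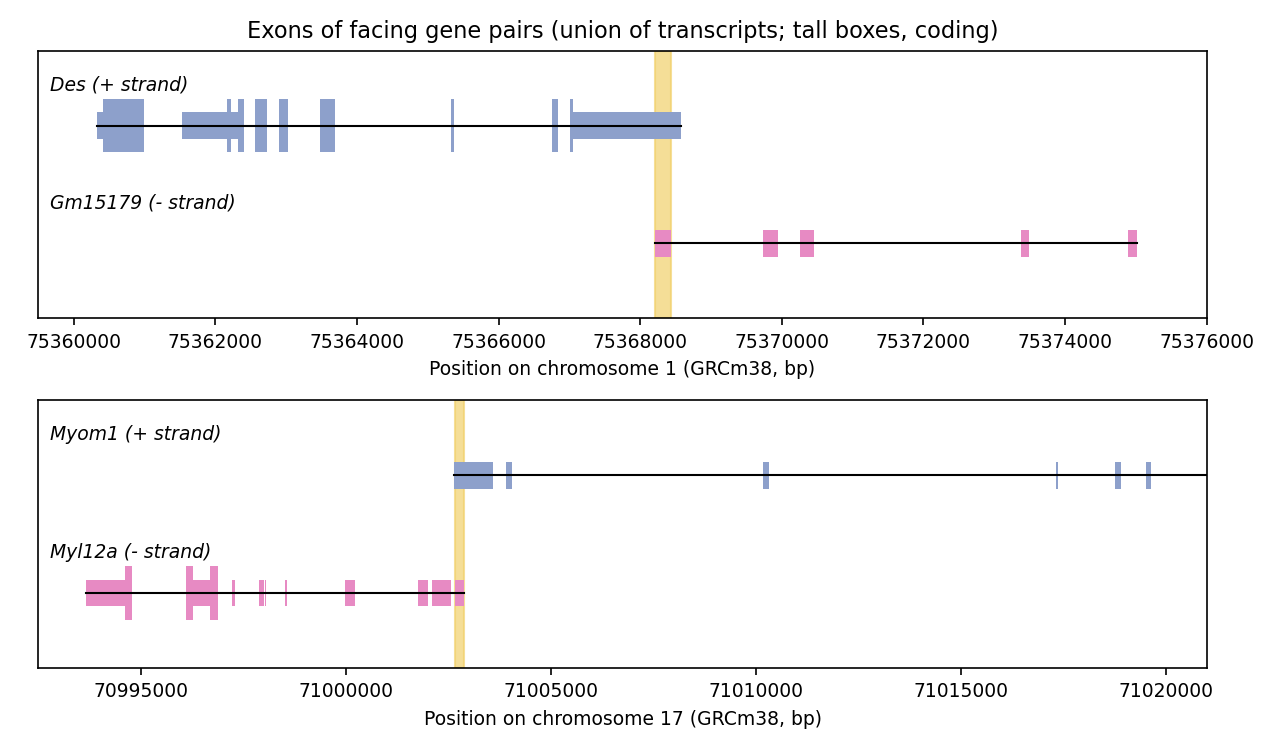
Exons of *Des* and *Gm15179* on chromosome 1 and of *Myl12a* and the first part of *Myom1* on chromosome 17 (horizontal axes, GRCm38 positions in bp). Boxes are exons of all annotated transcripts, tall boxes are coding, and the yellow bands mark the shared stretches of 220 and 207 bp, which hold no coding sequence.

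Among related genes the facing gene often had the larger count. In the list of other Z-disc genes, the facing gene had more counts in 5 of 6 cases, with *Cryab* as the exception. Among the other intermediate filament and costamere genes it did in 6 of 8 (all but *Dtna* and *Tln1*), and among the other M-band genes in 7 of 7. *Des* and *Myom1* thus had the larger count of their pairs, unlike most of these genes. Across all other pairs of facing genes with at least 60 counts on the lower gene and at least 10 times as many on the higher (367 pairs, chosen after the data were seen), the median log2 ratio of the lower to the higher count was -4.65, -4.52 and -4.72 in the iMS*Bmal1*+/+ and -4.47, -4.39 and -4.45 in the iMS*Bmal1*-/- libraries. The libraries of the 2 groups did not overlap in this measure, and the difference of 0.19 had the smallest p that the exact permutation test can give (0.1, two-sided). The ratio was higher in iMS*Bmal1*-/- muscle in 242 of the pairs (65.9%). For the 15 of these pairs whose lower gene is on the structural or fibre lists, the ratio was higher in 13 (86.7%), and the libraries of the groups overlapped (difference 0.27, exact permutation test, two-sided, p = 0.3). In these 15 pairs *Cmya5*, *Synm* and *Unc45b* are each counted again with another facing gene. The part of this ratio in the values of the members was not tested.

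Of 39 other Z-disc genes, 21 passed the filter on low counts, and 0 were past the threshold in edgeR, beside 1.83% of all tested genes. An unadjusted p under 0.05 was reached by 3 of the 21, beside 11.9% of all tested genes. DESeq2 called 0 of the 9 for which it gave an adjusted p, and limma 0 of 21. Their log2 fold changes were above 0 for 16 and below 0 for 5, with a median of 0.31, where 49.8% of all tested genes were above 0. The genes named from this list, picked by CPM without regard to length, were *Cryab*, a chaperone that binds desmin and titin (log2 fold change -0.16, 95% interval -0.38 to 0.06), the actin-binding *Xirp2* (0.27, interval -0.07 to 0.61) and *Nexn* (0.01, interval -0.35 to 0.36). *Cryab* was lower in each iMS*Bmal1*-/- library than in each iMS*Bmal1*+/+ library (edgeR adjusted p = 0.618), and the sign of *Nexn* changed under 6 of 13 alternatives. With 1 library left out the values ran from -0.20 to -0.09 for *Cryab* and from 0.15 to 0.47 for *Xirp2*. Over the 6 libraries *Xirp2* had 1286 counts and *Gm13601*, which faces it, 49574, while *Cryab* had 3297 and *Hspb2* 20.

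Of 26 other intermediate filament and costamere genes, 13 were tested and 1 was past the threshold in edgeR, beside 1.83% of all tested genes. DESeq2 (1 of 9 with an adjusted p) and limma (1 of 13) called the same gene. This was *Dtna*, which encodes α-dystrobrevin of the dystrophin complex. It had counts of 234, 262 and 359 in the iMS*Bmal1*+/+ libraries, against 216, 112 and 130 in those of iMS*Bmal1*-/- mice. The means fell from 129 ± 11.2 to 74.4 ± 17.2 CPM (SD, n = 3 each), without overlap, with a log2 fold change of -0.79 in edgeR (adjusted p = 0.00865, standard error 0.15). The call was lost without iMS*Bmal1*-/- replicate 2 (edgeR adjusted p = 0.0703, log2 fold change -0.72) and held under the other 12 alternatives, with adjusted p from 2.46e-05 to 0.0703 over all 13. *Gm47898*, which faces *Dtna*, had 880 counts over the 6 libraries and *Dtna* 1313. *Plec*, the cytolinker plectin (0.16, 95% interval -0.09 to 0.41), and the integrin-linked kinase gene *Ilk* (0.12, interval -0.14 to 0.38) were picked by CPM in the same way and were not past the threshold. With 1 library left out they ran from 0.06 to 0.29 and from 0.05 to 0.19, and *Ilk* had 1542 counts where *Taf10*, which faces it, had 4452. The median log2 fold change of this list was 0.00, and 2 of its genes had an unadjusted p under 0.05, beside 11.9% of all tested genes. They were *Dtna* and *Tln2* (log2 fold change -1.12, adjusted p = 0.101 in edgeR, overlapping groups), the latter named after its values were seen.

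Of 14 other M-band genes, 10 were tested and 0 were past the threshold in edgeR, with 4 at an unadjusted p under 0.05, beside 11.9% of all tested genes. DESeq2 called 1 of the 8 with an adjusted p, *Ckm*, and limma 0 of 10. The log2 fold change was above 0 for 8 and below 0 for 2, with a median of 0.28, where 49.8% of all tested genes were above 0. *Ckm* is the muscle creatine kinase, part of which sits at the M-band, and it had 653 ± 123 and 879 ± 59.0 CPM (SD, n = 3 each) with a log2 fold change of 0.43 (95% interval 0.18 to 0.68, adjusted p = 0.0822 in edgeR). It was past the threshold under 3 of 13 alternatives (adjusted p from 0.0135, without iMS*Bmal1*+/+ replicate 2, to 0.280). *Cmya5*, which binds desmin, was at 0.13 (95% interval -0.11 to 0.38, adjusted p = 0.733 in edgeR) and at 0.04 to 0.22 with 1 library left out. *Ckm* had 9583 counts over the 6 libraries and *A930016O22Rik*, which faces it, 1092649, while *Cmya5* had 3387 and *A630019I02Rik* 373776. Of the genes that face the Z-disc, intermediate filament and M-band lists, 0 of 6, 2 of 9 and 1 of 9 tested were past the threshold in edgeR, beside 1.83% of all tested genes, and all 3 were lower in iMS*Bmal1*-/- muscle: *Ttc23* and *Gm45102*, which face *Synm*, and *Gm4814*, which faces *Cmya5* (log2 fold changes -0.47, -0.42 and -0.46). They were picked out after their values were seen. Each of the 3 calls was lost without iMS*Bmal1*-/- replicate 1, without replicate 2 and without at least 1 further library, and over all alternatives, DESeq2 among them, the adjusted p ran from 0.000381 to 0.179, 0.000443 to 0.215 and 0.000443 to 0.205.

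**Figure D3:**
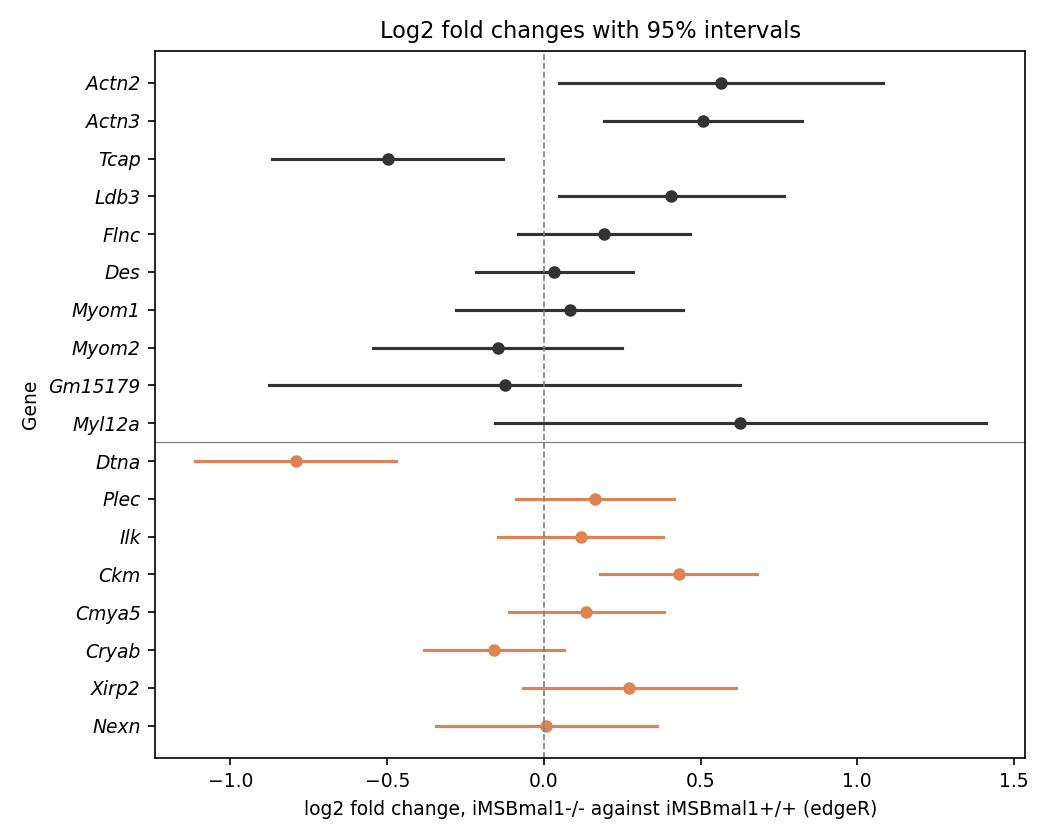
Log2 fold change of iMS*Bmal1*-/- against iMS*Bmal1*+/+ muscle (horizontal axis) with its 95% interval for the 10 genes (black) and 8 named genes of the related lists (orange). The interval lies above 0 for *Actn2*, *Actn3*, *Ldb3* and *Ckm* and below 0 for *Tcap* and *Dtna*, of which only *Dtna* is past the adjusted threshold.

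Counts were found under the names of skeletal muscle fibre markers, of which *Myh4*, the myosin of the fastest fibres, had the most reads counted, without regard to length. Of 12 fibre markers, 11 were tested, and all 11 had a log2 fold change above 0, 10 of them with an unadjusted p under 0.05 and 9 without overlap. Among all tested genes 49.8% were above 0, 11.9% had an unadjusted p under 0.05, 17.3% did not overlap and 1.83% passed in edgeR. *Mylpf*, named here after its values were seen, was the 1 marker past the threshold in edgeR (log2 fold change 0.85, adjusted p = 0.00241, and 4.47e-06 to 0.0169 over its 13 alternatives). DESeq2 called 5 markers and limma 1, and *Myh7* was not tested. Summed over the list, fibre markers had 8160, 10520 and 9301 CPM of all counts in the iMS*Bmal1*+/+ libraries, against 10986, 12330 and 13732 in those of iMS*Bmal1*-/- mice, without overlap. A gene faces 7 of the fibre markers, and it held more counts than the marker in 6 cases. The 6 facing genes tested had log2 fold changes from -0.60 to 0.63, and 1 of them, *Myhas*, named after its values were seen, was past the threshold in edgeR, lower in iMS*Bmal1*-/- muscle (adjusted p = 0.0447). It was past it under 5 of 13 alternatives and lost it with any of 5 single libraries left out, with adjusted p from 4.15e-09 to 0.229 over the edgeR, DESeq2 and limma fits. In bulk samples fewer cells of a type and less RNA per cell cannot be told apart. The part of these sums in the values of *Actn2*, *Actn3* and *Ldb3* was not tested.

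Divided by the summed fibre marker counts of the same library, a scale chosen after the data were seen, the 8 structural genes all shifted down. The shift is that of the scale, since the median log2 difference of the tested genes with counts in every library was -0.36, and 83.9% of them lay below 0. *Tcap* had 9.61, 10.7 and 8.27 counts per 1000 fibre marker counts in the iMS*Bmal1*+/+ libraries, against 4.39, 6.07 and 5.39 in those of iMS*Bmal1*-/- mice, a log2 difference of -0.85. *Actn3* had 24.7, 26.2 and 36.1 against 32.2, 29.8 and 34.8, a log2 difference of 0.17 with overlapping groups. *Actn2* and *Ldb3* also overlapped (0.28 and 0.04). *Tcap*, *Des* (-0.33) and *Myom2* (-0.51) were lower in every iMS*Bmal1*-/- library, 3 of the 10 genes where 28.0% of all tested genes were lower without overlap and 1.26% higher, so that this count is near that of genes at large. *Flnc*, *Des* and *Myom1*, which were a little above 0 after TMM normalization, came to lie below 0 with this shift.

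Markers of other cells had smaller sums. Smooth muscle markers, of which 3 of 5 were tested and 0 were past the threshold, summed to 46.8, 47.6 and 45.3 CPM in the iMS*Bmal1*+/+ libraries, against 41.2, 42.7 and 42.5 in those of iMS*Bmal1*-/- mice, with *Tagln* taking the most counts. The sums did not overlap, but singly 0 of the 3 tested markers were without overlap, beside 17.3% of all tested genes. Their log2 fold changes were below 0 for 2 and above 0 for 1. Smooth muscle also makes desmin, and the part of these markers in the values of *Des* and *Flnc* was not tested. Endothelial markers (2 of 4 tested, most counts on *Tek*) summed to 59.8, 56.1 and 62.6 against 56.6, 72.4 and 38.7 CPM, and fibroblast markers (3 of 5 tested, most counts on *Col3a1*) to 25.3, 40.6 and 18.4 against 23.3, 49.5 and 30.5 CPM. Macrophage markers were at 77.4, 81.1 and 53.8 against 57.0, 50.1 and 63.3 CPM (1 of 4 tested, *Csf1r*), while *Adgre1* was at 0 in all libraries. Blood markers were at 146, 162 and 177 against 203, 178 and 167 CPM (1 of 5 tested, *Alas2*). Nearly all of this sum was *Alas2* (2210 counts), since *Hba-a1*, *Hba-a2*, *Hbb-bs* and *Hbb-bt* had 0 to 3 counts in a library. None of the markers tested in these lists was past the threshold in edgeR or limma, nor any of the few for which DESeq2 gave an adjusted p, and 1 of them, *Csf1r*, had an unadjusted p under 0.05. Markers of adipocytes (at most 1.47 CPM in a library, *Lep* at 0), Schwann cells (at most 4.33) and satellite cells (at most 2.21) were not tested.

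BMAL1 binds DNA with CLOCK at E-boxes, for which CACGTG is the canonical sequence. The 250 bases before the transcription start were searched for CACGTG, which reads the same on both strands, in RefSeq promoters on GRCm38.p6. Of the 10 genes, 7 had an entry, and *Actn3*, *Tcap* and *Myom2* had none. The sequence was present before *Actn2* and *Myl12a*, as in 6.02% of the 32851 promoters of the table, and neither gene was past the threshold. *Actn2* had it at 84 and 48 bases before the RefSeq start. The last 28 bases before that start lie in the annotated exon of *Actn2*, so these distances do not count from the end of the sequence shown. Its promoter is shown up to the base before the annotated exon (chr13:12340761-12340982, minus strand, 222 bases), and for *Myl12a*, where exons of other transcripts cover 172 of the bases searched, the motif is shown with its surroundings (chr17:71002566-71002595, minus strand), with the motif in capitals.
*Actn2*: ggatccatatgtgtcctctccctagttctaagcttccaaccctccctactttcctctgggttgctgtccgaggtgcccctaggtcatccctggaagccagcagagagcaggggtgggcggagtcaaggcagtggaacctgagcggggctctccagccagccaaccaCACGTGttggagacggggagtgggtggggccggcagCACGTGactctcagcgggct
*Myl12a*: gccagggccagtCACGTGacgtccgcggcc
A match is a description of these bases, and binding was not measured in these libraries.

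The limits of these values are those of 3 mice per group and of the deposited counts. At 9 to 28 counts per library, *Gm15179* and *Myl12a* had the widest intervals of the 10 genes. Whether *Actn3* passed the threshold depended on the alternative, and *Des*, *Myom1* and *Myom2* passed it under 0 alternatives. Each mouse gave 1 muscle sample, so rhythm of *Actn2*, *Actn3* or *Tcap* over the day could not be seen, and amounts of their proteins were not measured in these libraries.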

How the data were processed

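Each of the 6 libraries came from the TA muscle of a separate mouse. The authors mapped reads to mm10 with HISAT2 and obtained a raw count per gene with HTSeq, and tool versions, annotation release and strand setting are not given in the sources used here. The second deposited table holds a normalized signal, the count divided by 1 DESeq2 size factor per library. The raw counts were analysed with edgeR 4.0.16 (R 4.3.3), with TMM factors, its filter on low counts, the quasi-likelihood test (two-sided) and Benjamini-Hochberg adjustment over the 6831 tested genes, at a threshold of 0.05. Standard errors and 95% intervals were derived from its F statistic. Positions, exon lengths and facing genes (exons overlapping by at least 1 bp) came from GENCODE mouse release 21 on GRCm38, which held 52489 of the 52636 identifiers. Single ratios were compared with exact permutation tests. Alternatives were DESeq2 1.42.0, limma 3.58.1 on log2(normalized value + 1), no filter, at least 10 counts in every library, upper-quartile factors, the replicate block, each library left out, and facing counts summed. Python 3.11.15 with pandas 2.3.3 and numpy 2.4.6 was used for annotation and sequences.

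The members and lists were chosen with earlier results of these data known. Named list genes were taken from those past the threshold and the 3 with the highest mean CPM in each of the 3 structural lists.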

Additional observations from a re-analysis of the deposited data

How the results depend on the processing

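Under 12 to 14 alternatives each, 0 of the 10 genes passed the threshold except *Actn3*. With no filter on low counts 219 genes and 1 member gene passed, compared with 125 and 0, and the number with 1 library left out was 60 to 109 genes and 0 to 1 member genes. The replicate block gave 220 genes and 1 member gene, *Actn3* (edgeR adjusted p = 0.00282, and 0.00282 to 0.392 over its alternatives). The replicate numbers do not pair the mice, since same-numbered libraries had correlations of -0.037, -0.017 and -0.029 in their deviations from the group means. Signs changed for *Des* (-0.00302 with no filter, -0.00408 with limma) and for *Nexn* (-0.0213 with DESeq2, -0.0275 with no filter, -0.00700 with limma). Division by fibre markers put *Flnc* (-0.17), *Des* (-0.33) and *Myom1* (-0.28) below 0, where the median tested gene stood at -0.36. That scale moved genes at large down, so these values do not bear on how stable the signs of these genes are. With 1 library left out the log2 fold change ranged from -0.0920 to 0.12 for *Des*, -0.0102 to 0.20 for *Myom1*, -0.30 to 0.00771 for *Myom2*, -0.47 to 0.19 for *Gm15179* and -0.12 to 0.14 for *Nexn*. Reads recovered from the normalized table, an alternative chosen after seeing the data, were whole for 100% of values (within 1e-06) and gave 125 genes. Summing a member with its facing gene changed no call for *Des* and *Myom1*, and took the log2 fold change of *Myom1* from 0.08 to 0.17. At 9 to 28 counts per library, *Gm15179* and *Myl12a* have intervals over 1 log2 unit wide, and differences inside them were not detectable from these counts.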
